A study of Mus musculus with 24 samples.

Results

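The enzymes that load, interconvert and release one-carbon units on folate were followed in liver RNA of mice fed a methionine-choline deficient (MCD) diet or its control diet. The set holds 8 genes, chosen by symbol: Shmt1, Shmt2, Mthfd1, Mthfd1l, Mthfd2, Aldh1l1, Aldh1l2 and Tyms. All 8 had a row among the 56205 gene rows of the count table, and 7 of them passed the filter on low counts that left 14109 genes for testing; Aldh1l2 did not. The libraries were made from polyadenylated RNA of the livers of 24 C57BL/6J mice, taken after 20 weeks with 12 animals on each diet, with males and females in equal numbers per diet but no sex, litter or batch given for a single library. Feed of this kind is a common mouse model of fatty liver with inflammation and scarring. The paper's results call a model of this kind CDAHFD, a choline-deficient feed with defined amino acids, and the labels' name is kept here, so how much methionine the feed held is not settled by the sources used. The methods describe this MCD diet as high in fat and name a separate control diet, so the diets need not differ in methionine and choline alone. The labels give no transgene, knockout or drug, and the age of these animals is not given in the sources used here.

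Tetrahydrofolate carries single carbons between serine, glycine, formate, purines, thymidylate and methionine, and most of its reactions run both in the cytosol and in mitochondria. The serine hydroxymethyltransferases SHMT1 (cytosol) and SHMT2 (mitochondria) move a carbon from serine to folate. The MTHFD proteins carry that carbon between oxidation states: MTHFD1 holds 3 activities in the cytosol, while MTHFD2 and MTHFD1L work in sequence in mitochondria and release formate. The 10-formyltetrahydrofolate dehydrogenases ALDH1L1 (cytosol) and ALDH1L2 (mitochondria) oxidize the carbon to carbon dioxide, and thymidylate synthase (TYMS) spends it on dTMP. Adult liver is a major site of folate storage and is rich in ALDH1L1, whereas MTHFD2 is known from embryonic, proliferating and transformed cells.

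The promoters of the 2 genes that rose under the MCD diet, Mthfd2 and Mthfd1l, and of the 2 that fell most, Shmt1 and Aldh1l1, are shown so that the members that moved in opposite directions can be read side by side. Each run covers 250 bases before to 50 bases after the RefSeq start site on build GRCm38.p6, written 5′ to 3′ on the strand of the gene. Mthfd2 lies at chr6:83317555-83317854 on the minus strand, Mthfd1l at chr10:3972825-3973124 on the plus strand, Shmt1 at chr11:60811216-60811515 on the minus strand and Aldh1l1 at chr6:90550543-90550842 on the plus strand. The RefSeq starts of Mthfd2, Shmt1 and Aldh1l1 lie inside the longer extents that GENCODE gives these genes. Capitals mark the words CCAAT and GGGCGG, as spelled or as their reverse complements.
Mthfd2: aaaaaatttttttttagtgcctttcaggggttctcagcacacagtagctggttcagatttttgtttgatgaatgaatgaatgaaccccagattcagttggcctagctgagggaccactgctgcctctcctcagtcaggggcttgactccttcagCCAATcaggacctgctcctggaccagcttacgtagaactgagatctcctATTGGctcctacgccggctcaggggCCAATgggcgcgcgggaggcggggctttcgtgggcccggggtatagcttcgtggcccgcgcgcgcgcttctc
Mthfd1l: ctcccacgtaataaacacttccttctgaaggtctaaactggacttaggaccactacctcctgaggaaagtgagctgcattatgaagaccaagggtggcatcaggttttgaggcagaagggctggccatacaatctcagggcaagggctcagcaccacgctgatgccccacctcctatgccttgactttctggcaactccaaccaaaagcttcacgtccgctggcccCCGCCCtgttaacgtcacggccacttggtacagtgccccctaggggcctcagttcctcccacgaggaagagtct
Shmt1: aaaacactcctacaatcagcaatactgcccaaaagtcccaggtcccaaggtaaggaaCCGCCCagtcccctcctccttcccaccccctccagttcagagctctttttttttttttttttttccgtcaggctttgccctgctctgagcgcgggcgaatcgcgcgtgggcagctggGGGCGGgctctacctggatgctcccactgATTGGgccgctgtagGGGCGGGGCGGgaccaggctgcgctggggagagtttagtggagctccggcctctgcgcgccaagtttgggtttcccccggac
Aldh1l1: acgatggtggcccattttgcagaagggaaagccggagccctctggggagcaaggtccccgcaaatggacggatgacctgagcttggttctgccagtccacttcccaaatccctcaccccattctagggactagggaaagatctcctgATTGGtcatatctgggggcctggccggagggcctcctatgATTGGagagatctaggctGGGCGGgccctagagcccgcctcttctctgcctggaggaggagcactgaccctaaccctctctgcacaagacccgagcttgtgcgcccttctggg

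RefSeq held a promoter for 7 of the 8 genes, all but Aldh1l2. Both strands were searched for 6 words. The first 4 were TGATGNAA (the C/EBP-ATF response element word), TTTCCCGC and TTTGGCGC (E2F words) and CACGTG (an E-box). CCAAT and GGGCGG were added after the values were seen. TGATGNAA, TTTCCCGC and TTTGGCGC were in none of the 7 promoters and in 3.97%, 1.07% and 0.514% of all 32851 promoters of the same length. CACGTG was in the Tyms promoter alone, at -61 from the start, and in 7.15% of all promoters. CCAAT was in 37.4% of all promoters. The Mthfd2 promoter held it 3 times, with first bases at -96, -47 and -22, Aldh1l1 had it at -103 and -63, Shmt1 at -47 and Mthfd1 at -69. GGGCGG was in 35.7% of all promoters. Shmt1 carried 4 copies, at -193, -76, -32 and -27, of which the last pair overlap, and Tyms, Aldh1l1, Mthfd1l and Mthfd1 carried 1 copy each. Shmt2 had none of the 6 words. Genes that rose and genes that fell thus both held CCAAT and GGGCGG, and a match of letters is no evidence of a bound factor.

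Control libraries held 16793207 to 24915175 counts and MCD libraries 16388650 to 24577848. A floor of 3 counts lay between 0.109 and 0.227 CPM (counts per 1e6 counts of the library) and covers counting error only. CPM here is scaled by TMM factors, which correct for RNA composition. These factors did not overlap between diets, at 0.642 to 0.973 in control and 1.07 to 1.26 in MCD. Control replicate 12 stood apart with the lowest factor and the highest Shmt2, Aldh1l1 and Tyms, and control replicate 4 with the highest control Mthfd1l. Mitochondrial genes took 5.34% to 11.5% of counts in control and 5.49% to 7.79% in MCD. Without replicates 4 and 12 the same numbers of enzymes were called. The liver label was checked with 10 hepatocyte markers, which were all detected, and their summed level was 80280 to 187100 CPM in control and 58860 to 86300 CPM in MCD. Nothing in the labels says whether the libraries of a diet shared a cage or litter, and p-values measure the spread between these libraries.

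The comparison of the diets asked how each enzyme responded to MCD feeding. Messages of 4 enzymes fell, Shmt1, Aldh1l1, Mthfd1 and Shmt2, and those of 2 mitochondrial enzymes, Mthfd2 and Mthfd1l, rose. The calls of Mthfd1 and Shmt2 rest on the scaling: with total counts alone, or relative to hepatocyte markers, both stayed lower but under the fold limit, and 2 enzymes were called lower. A gene was called when the FDR of edgeR's quasi-likelihood test over all tested genes was at most 0.01 and the log2 fold change was beyond 0.5 in either direction. By that rule 19.1% of all tested genes were called lower and 19.2% higher, against 4 and 2 of the 7 tested enzymes. The median log2 fold change of the 7 was -0.74, beside -0.10 for all tested genes. In all 4 enzymes that fell, every MCD library lay below every control library, which held for 4.88% of tested genes. Every MCD library lay above every control library in Mthfd2 alone, which held for 9.50% of tested genes. In whole-liver RNA, fewer cells of a type and less RNA per cell cannot be told apart.

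**Figure D1:**
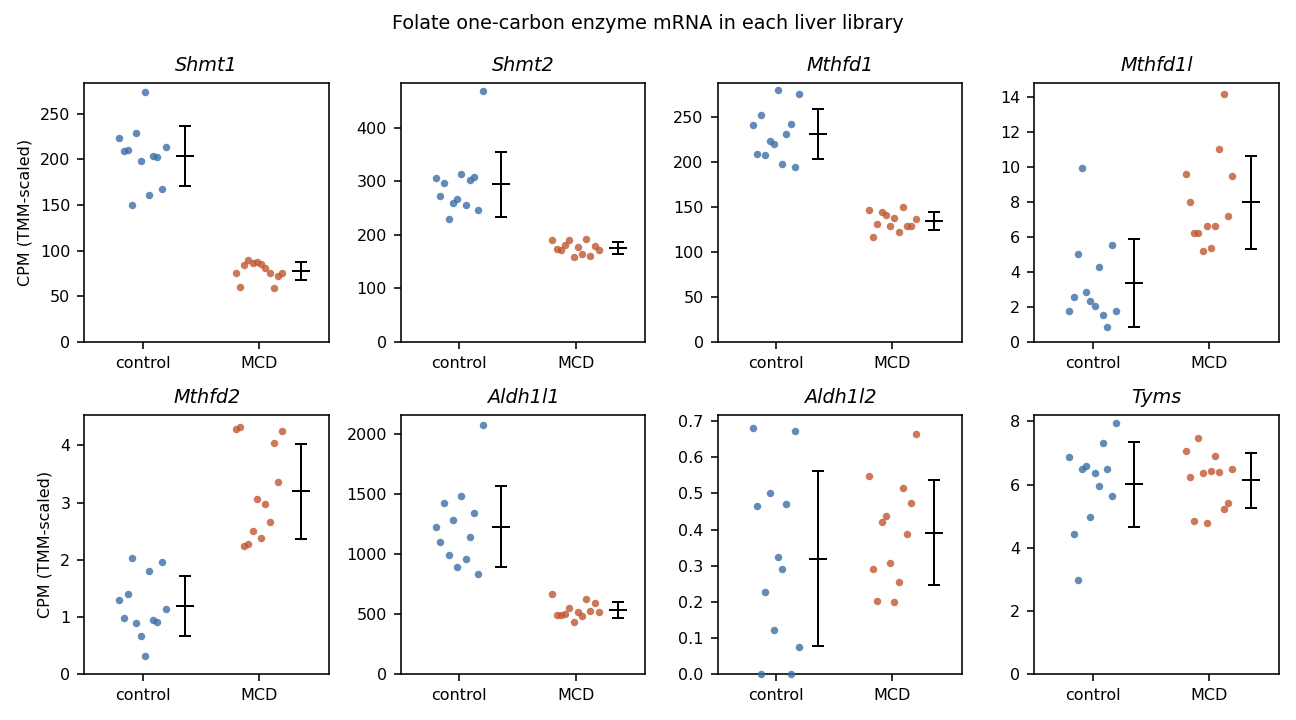
Level of each enzyme gene in TMM-scaled CPM (linear axes from 0, a separate scale for each gene) in the 12 control and 12 MCD libraries, 1 point per library, with the mean and SD at the side of each group. Shmt1, Shmt2, Mthfd1 and Aldh1l1 do not overlap between diets and are lower in MCD, Mthfd2 does not overlap and is higher, Mthfd1l overlaps through control replicates 4 and 11, and Aldh1l2 and Tyms overlap throughout.

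The serine hydroxymethyltransferases both fell. Shmt1 lies at chr11:60788104-60811718 (GRCm38, minus strand). Its level was 150.0 CPM in the lowest, 206 in the median and 273.5 in the highest control library, and 59.1, 78.5 and 89.8 CPM in the MCD libraries. The highest MCD library was far below the lowest control library. Shmt1 changed by -1.39 on the log2 scale (SE 0.0926, edgeR FDR = 3.56e-12), a level 2.62-fold higher in control. Shmt2 lies at chr10:127517123-127522444 (minus strand). It ran from 229.9 through a median of 285 to 469.6 CPM in control and from 158 through 175 to 193 CPM in MCD. The groups did not overlap, and the spread was wider in control (coefficient of variation 20.9%) than in MCD (6.43%). Shmt2 changed by -0.74 on the log2 scale (SE 0.0883, edgeR FDR = 5.47e-08), or 1.68-fold, and by -0.36 with total counts alone. The exons of Shmt1 overlap those of Smcr8, and the exons of Shmt2 those of Ndufa4l2, both on the opposite strand. The study's methods name a strand-specific kit without saying for which species, and the use of strand in counting is not given for the mouse libraries, so reads of such pairs may be shared.

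The MTHFD enzymes went different ways. Mthfd1, the cytosolic trifunctional enzyme (chr12:76255298-76319803, plus strand), had its lowest, median and highest control levels at 194, 227 and 280.2 CPM and its MCD levels at 116, 134 and 150.2 CPM. The groups lay apart, with coefficients of variation of 12.2% in control and 7.68% in MCD. Mthfd1 changed by -0.78 on the log2 scale (SE 0.0696, edgeR FDR = 4.19e-10), and by -0.41 with total counts alone. Mthfd2, the mitochondrial dehydrogenase and cyclohydrolase (chr6:83305691-83325908, minus strand), ran from 0.326 through 1.06 to 2.04 CPM in control and from 2.24 through 3.02 to 4.33 CPM in MCD. The lowest MCD library was just above the highest control library. Mthfd2 rose by 1.41 on the log2 scale (SE 0.215, edgeR FDR = 2.78e-06), or 2.66-fold, from a low level. Mthfd1l, the mitochondrial formyltetrahydrofolate synthetase (chr10:3973118-4167081, plus strand), spanned 0.846 to 9.96 CPM in control, with a median of 2.45, and 5.20 to 14.2 CPM in MCD, with a median of 6.91. Control replicate 4 at 9.96 CPM and control replicate 11 at 5.51 CPM reached into the MCD range, and only 2 MCD libraries exceeded every control. Its log2 difference of 1.23 (SE 0.283, edgeR FDR = 0.000492) had a 95% interval of 0.64 to 1.82. Without control replicates 4 and 12 it was 1.49. Exons of Mthfd1 overlap the predicted gene Gm47525 on the opposite strand, while Mthfd2 and Mthfd1l overlap no annotated exon.

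Aldh1l1, which oxidizes 10-formyltetrahydrofolate in the cytosol, was the most abundant of the 8 and fell in every MCD library. Its gene lies at chr6:90486427-90600203 (plus strand). Control libraries held 837 CPM at the lowest, 1185 at the median and 2078 CPM at the highest, and MCD libraries 434, 517 and 670.2 CPM. Aldh1l1 changed by -1.20 on the log2 scale (SE 0.121, edgeR FDR = 3.57e-09), a level 2.30-fold higher in control. The highest value came from control replicate 12, and without replicates 4 and 12 the log2 fold change was -1.08. Exons of Aldh1l1 overlap Gm45901 on the same strand and Gm15756 on the other. Aldh1l2, its mitochondrial counterpart (chr10:83487450-83534140, minus strand), was close to the limit of detection, and its exons overlap D10Wsu102e on the opposite strand. It had 0 to 15 counts per library in control, with 2 libraries at 0 and 4 at or under 3 counts, and 5 to 18 counts in MCD. The means were 0.320 CPM in control and 0.392 CPM in MCD with overlapping ranges. It did not pass the low-count filter, and in the fit without that filter its log2 fold change was 0.31 with a 95% interval of -0.53 to 1.14 (edgeR FDR = 0.554), so that no difference was detectable at this depth.

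Tyms, which makes dTMP and returns dihydrofolate, overlapped between the diets. The gene lies at chr5:30058202-30073617 (minus strand). Its lowest, median and highest levels were 2.97, 6.44 and 7.95 CPM in control and 4.78, 6.38 and 7.47 CPM in MCD. The log2 fold change was 0.03 with a 95% interval of -0.22 to 0.28 (edgeR FDR = 0.823), which does not show that the level is the same. With total counts alone, which shifts all genes upward, it was 0.41 (edgeR FDR = 0.00225), under the fold limit. Relative to hepatocyte markers, a scale described further on, Tyms was higher in MCD by 0.53 (permutation test, adjusted p = 0.000154), beyond the fold limit. A processed pseudogene, Tyms-ps, could share reads with Tyms.

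Levels of different genes were compared per kilobase of exon. Aldh1l1 led in both diets, at 272.7 ± 74.9 CPM per kb (SD, n = 12) in control and 119 ± 14.8 in MCD, followed by Shmt2 at 94.7 ± 19.8 and 56.5 ± 3.64. In both diets every library kept Aldh1l1 above Shmt2 without overlap of their ranges. Shmt1 and Mthfd1 could not be ordered in control, at 52.4 ± 8.55 and 52.1 ± 6.35 CPM per kb, where Shmt1 was the higher of the pair in 6 of 12 libraries. Under the MCD diet Mthfd1, at 30.2 ± 2.32, was above Shmt1, at 20.0 ± 2.61, in 12 of 12 libraries. Below a wide gap came Tyms, Mthfd1l and Mthfd2 at 0.986 ± 0.222, 0.760 ± 0.570 and 0.344 ± 0.151 CPM per kb in control. In MCD livers their order was Mthfd1l at 1.80 ± 0.599, Tyms at 1.01 ± 0.143 and Mthfd2 at 0.917 ± 0.237, and Tyms was above Mthfd2 in 6 of 12 libraries. Aldh1l2 was lowest in both, at 0.0426 and 0.0522 CPM per kb. Summed per kilobase, the 4 cytosolic enzymes had a median of 372 in control and 167 CPM per kb in MCD, and the 4 mitochondrial ones 93.0 and 58.7. The mitochondrial share of the sum was 17.6% to 23.0% in control and 24.2% to 27.8% in MCD, so that the groups did not overlap. Most of that share was Shmt2, at a median of 20.3% and 25.0% of the sum. Mthfd1l and Mthfd2 together with Aldh1l2 made up the small rest, with medians of 0.133% and 0.720% for Mthfd1l and of 0.0622% and 0.401% for Mthfd2 in control and MCD.

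To compare the compartments without library scaling, each mitochondrial message was divided by its cytosolic counterpart in the same library. All 4 ratios were higher in MCD (two-sided permutation test with 100000 resamples, adjusted over the 4 ratios). Shmt2 per kilobase was 142% to 274% of Shmt1 in control and 225% to 358% in MCD. The mean log2 ratio rose by 0.66, or 1.58-fold (adjusted p = 1.33e-05), since Shmt1 fell further than Shmt2. The adjusted p of 1.33e-05 follows from a raw p of 1e-05, the smallest the resamples can give. Mthfd1l was 0.349% to 4.80% of Mthfd1 in control and 3.68% to 11.1% in MCD, and its log2 ratio rose by 2.25, or 4.76-fold (adjusted p = 1.33e-05). Mthfd2 per kilobase was 0.148% to 1.29% of Mthfd1 in control and 2.01% to 4.74% in MCD. This ratio rose by 2.27 on the log2 scale, or 4.82-fold, with all 12 MCD libraries above every control (adjusted p = 1.33e-05). Aldh1l2 was at most 0.0483% of Aldh1l1 in control and 0.0230% to 0.0776% in MCD. Its log2 ratio rose by 1.89 (adjusted p = 0.0001) and rests on few Aldh1l2 counts: with a pseudocount of 5 in place of 0.5 it was 1.20. Aldh1l2 itself had no detectable difference, while Aldh1l1 changed by -1.20 on the log2 scale.

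**Figure D2:**
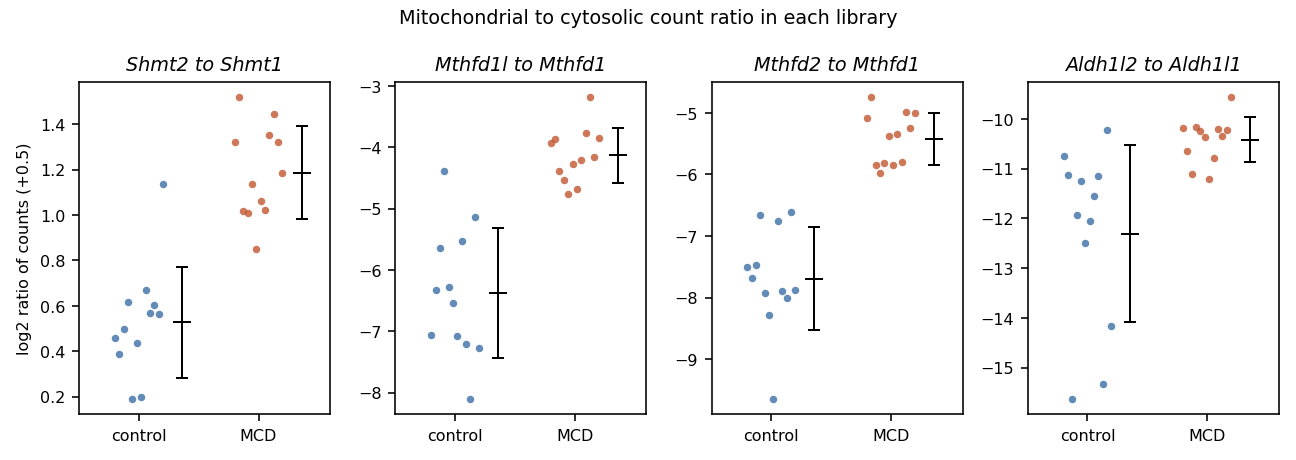
Log2 ratio of counts (pseudocount 0.5, not per length) of each mitochondrial enzyme to its cytosolic counterpart in the 12 control and 12 MCD libraries, 1 point per library, with the mean and SD at the side. Mthfd2 to Mthfd1 separates all 12 MCD libraries from the controls, and 7, 8 and 5 MCD libraries lie above every control for Shmt2 to Shmt1, Mthfd1l to Mthfd1 and Aldh1l2 to Aldh1l1.

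Around these enzymes, more genes of folate metabolism were called lower than higher with TMM scaling, which did not hold with total counts alone (4 higher, 4 lower) and was less marked with upper-quartile factors (10 lower). Of 39 other folate pathway genes in 6 lists, 37 were tested, 17 were called lower and 2 higher, and their median log2 fold change was -0.49, beside 19.1% and 19.2% of all genes and a median of -0.10. In folate interconversion, Ftcd, which feeds histidine carbons into folate, fell by 0.94 on the log2 scale (edgeR FDR = 2.37e-09), from a mean of 484 to 252 CPM. Mthfd2l, a paralog of Mthfd2, had a log2 fold change of 0.19, and Mthfs and Mtfmt, which handle formyl folates, had 0.04 and -0.20, and none of these was called.

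In the list named mitochondrial one-carbon donors 7 of 8 genes were called lower and none higher, beside 19.1% and 19.2% of all tested genes, a background that holds for each list here. With total counts alone 4 of the 37 other pathway genes were called lower in all. Pipox (a peroxisomal sarcosine and pipecolate oxidase) changed by -1.34, Gldc (glycine decarboxylase of the glycine cleavage system) by -1.22, Dmgdh (dimethylglycine dehydrogenase) by -1.02 and Sardh (sarcosine dehydrogenase) by -0.86 on the log2 scale, with the groups apart in each. Chdh, also called lower, is choline dehydrogenase, and like Pipox it is not known to load mitochondrial folate itself. Of the 4 genes of methyl transfer to homocysteine, 3 fell. Bhmt2 and Bhmt, homocysteine methyltransferases that do not draw on folate, changed by -0.82 and -0.74, and Mtr (methionine synthase) by -0.55 on the log2 scale. In folate transport and retention 3 of 6 tested genes fell and 1 rose. Slc25a32, which carries folate into mitochondria, changed by -0.66, the proton-coupled transporter Slc46a1 by -0.60 and the reduced folate carrier Slc19a1 by -0.54, while Ggh, which trims polyglutamate tails, rose by 0.72 on the log2 scale. Folr1, a folate receptor under the low-count filter, had 0 to 1 counts per library in control and 4 to 25 in MCD, above every control in 12 of 12 libraries, and was called higher in the fit without that filter (edgeR FDR = 4.64e-08 over 27553 genes).

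The lists of purine synthesis and of thymidylate and deoxynucleotide supply, the latter with salvage and reductase genes that use no folate, had calls in 3 of 13 tested genes, all lower, beside 19.1% of all genes. In purine synthesis 1 of 6 genes was called, Ppat, the entry enzyme, with a log2 fold change of -0.69. Gart and Atic, the enzymes that take formyl groups from folate, had log2 fold changes of -0.05 and 0.08 and were not called. Of 7 tested genes of thymidylate and deoxynucleotide supply 2 were called lower, Tk1 (thymidine kinase) at -0.92 and Rrm2 (a ribonucleotide reductase subunit) at -0.52 on the log2 scale, and none higher. Dctd (dCMP deaminase), under the low-count filter, had 0 to 5 counts in control and 6 to 23 in MCD, above every control in 11 of 12 libraries, and was called higher in the fit without that filter (edgeR FDR = 6.03e-06 over 27553 genes). Dut and Dtymk, the neighbors of Tyms in dTTP synthesis, were at 0.05 and 0.14.

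**Figure D3:**
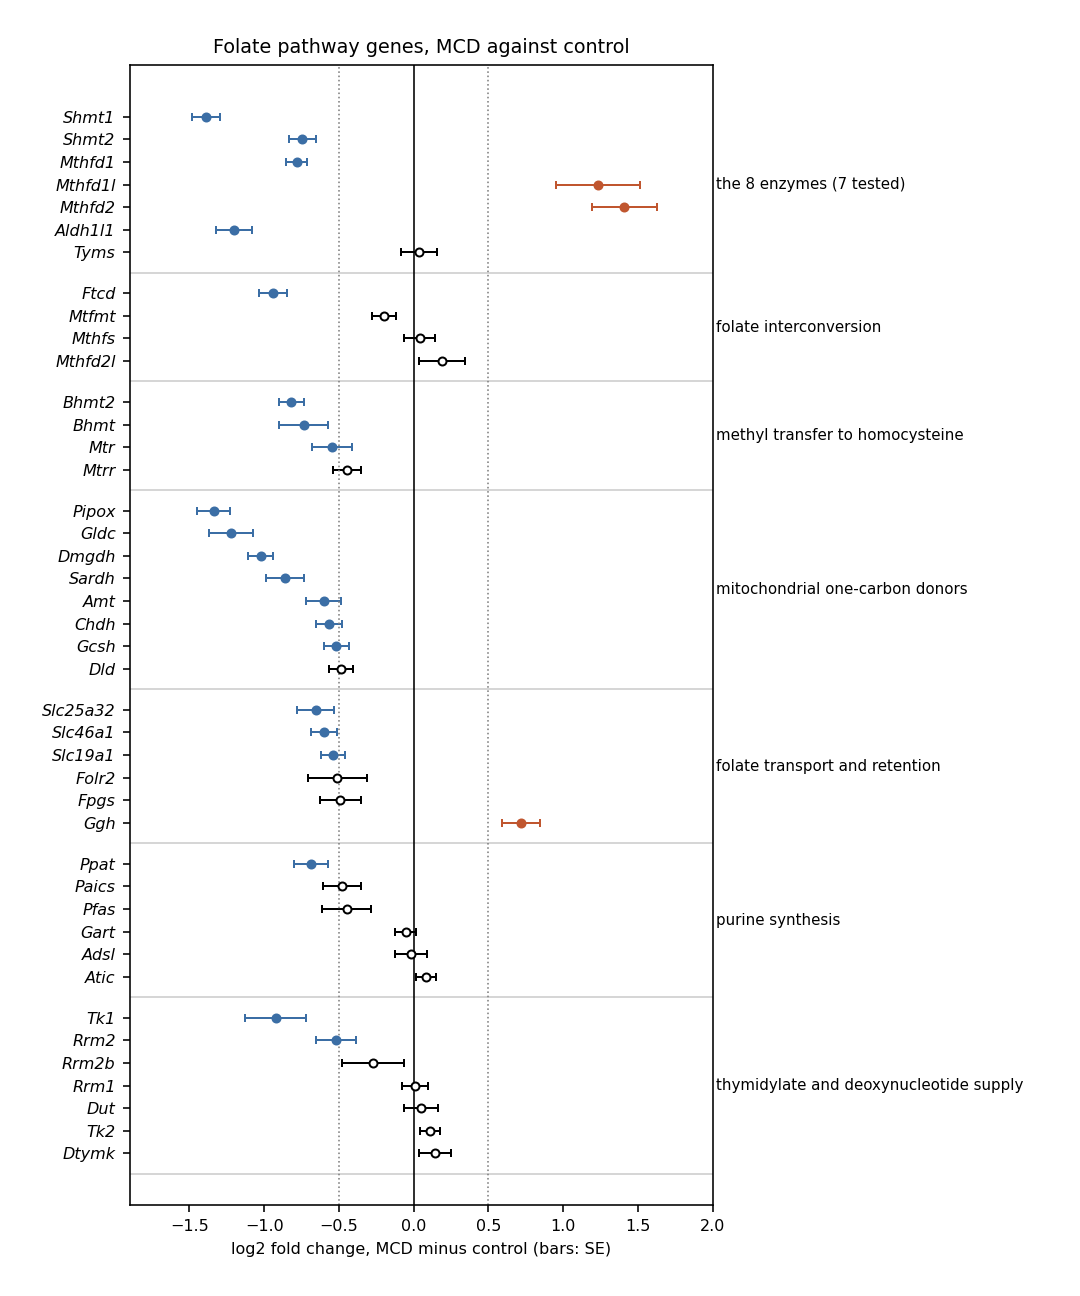
Log2 fold change (MCD minus control, bars SE) of the 7 tested enzymes and of 35 other folate pathway genes in 6 lists. Filled blue points were called lower, filled orange points higher and open points not called, and dotted lines mark the limit of 0.5 in either direction. Mthfd2 and Mthfd1l lie at 1.41 and 1.23, and among the other pathway genes drawn Ggh lies highest, at 0.72.

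The first of 3 companion lists covers serine and glycine supply, with 2 of 7 genes called higher and 2 lower, beside 19.2% and 19.1% of all tested genes. Phgdh and Psat1, the first enzymes of serine synthesis, rose by 2.36 and 2.31 on the log2 scale, from means of 0.508 and 1.25 CPM to 2.62 and 6.33 CPM, with no overlap between diets. Psph, the last enzyme of that route, was at 0.01 and was not called, and Gnmt (glycine N-methyltransferase) and Agxt (alanine-glyoxylate aminotransferase), which consume and form glycine, changed by -1.16 and -0.91. Of 9 genes linked to the stress factor ATF4, 5 rose and none fell, beside the same shares. Slc7a11 (the cystine transporter) changed by 4.55, Asns (asparagine synthetase) by 4.06, Fgf21 by 1.16 and Trib3 by 0.79 on the log2 scale, while Atf4 itself, at 0.28, was not called. The Asns value rests on part of the MCD libraries: they ran from 1.53 to 43.6 CPM, 6 of 12 were above every control, and Asns had a diet-by-score term in the model with the sex-linked score described further on (edgeR FDR = 0.000404). In the proliferation list 10 of 12 genes rose and none fell, among them Cdk1 by 1.79, Ccnb2 by 1.79, Plk1 by 1.73 and Ccnb1 by 1.68 on the log2 scale. Their part in the values of Mthfd2 and Mthfd1l was not tested.

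Cell-type markers also moved with diet, and their counts stand beside 19.1% of all tested genes called lower and 19.2% called higher. Of 10 hepatocyte markers 5 fell and none rose, with a median log2 fold change of -0.56, and Serpina1c, Ttr, Apob and Fgb changed by -0.98, -0.85, -0.79 and -0.71. All 7 markers of monocyte-derived macrophages rose, and their summed level went from 46.6 to 205.2 CPM in control to 1082 to 2143 CPM in MCD, with Gpnmb and Trem2 changed by 6.89 and 4.59 on the log2 scale. Mesenchymal markers rose in 8 of 10 and fell in 1, with Lum and Col1a1 at 3.15 and 2.88, and their summed level was 224 to 644 CPM in control and 832 to 1444 CPM in MCD. All 6 cholangiocyte markers rose, from a sum of 4.36 to 16.6 CPM to a sum of 53.3 to 126.5 CPM, with Cldn4 and Epcam at 4.68 and 3.66. Kupffer cell markers fell in 5 of 6, among them Cd163 at -6.14 and Timd4 at -4.10, and their sums, 149 to 445 CPM in control and 81.3 to 297 CPM in MCD, overlapped. Endothelial markers fell in 4 of 6, with sums of 178 to 260 CPM in control and 111 to 163 CPM in MCD. Of 8 tested lymphocyte markers 4 rose, with sums of 4.43 to 13.3 CPM and 11.6 to 24.7 CPM. Their part in the enzymes' values was not tested.

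Levels were also taken relative to the mean log2 CPM of the 10 hepatocyte markers in the same library, which was 0.47 lower in MCD, with permutation p adjusted over 7 genes. On that scale the log2 difference was -0.91 for Shmt1 (adjusted p = 2.33e-05) and -0.69 for Aldh1l1 (adjusted p = 2.33e-05), with every MCD library below every control for Aldh1l1 and 11 of 12 for Shmt1. Shmt2 and Mthfd1 shrank to -0.25 (adjusted p = 0.00515) and -0.30 (adjusted p = 0.000408) with overlapping groups, under the fold limit. Mthfd2 and Mthfd1l were higher by 1.90 and 1.92 (adjusted p = 2.33e-05 and 5.25e-05), and Tyms by 0.53 (adjusted p = 0.000154), higher than every control in 9 of 12 MCD libraries. Scaling by total counts alone, which moves the median of all tested genes up by 0.37 on the log2 scale, also put Shmt2 and Mthfd1 under the fold limit, at -0.36 and -0.41.

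Since the libraries carry no sex label, a sex-linked score (log2 CPM of Xist minus the mean of Ddx3y, Eif2s3y, Kdm5d and Uty) was entered as a number. The score was above 0 in 6 libraries of each diet. With it in the model all 6 calls stayed, and the log2 fold changes of the called enzymes ran from -1.40 for Shmt1 to 1.40 for Mthfd2. No enzyme had a score term past an edgeR FDR of 0.01, the lowest being 0.127 for Mthfd2 and 0.137 for Shmt1, although 491 of the 14109 tested genes did. The diet-by-score term was likewise not past it for any enzyme, the lowest edgeR FDR of those tested being 0.246 for Mthfd1l. Among MCD libraries, Shmt1 ran from 81.2 to 89.8 CPM in the 6 with a score above 0 and from 59.1 to 75.8 CPM in the 6 below 0, and Mthfd1l from 5.20 to 6.62 CPM and from 7.19 to 14.2 CPM, so that these libraries did not overlap by score. Both MCD libraries with more Mthfd1l than every control were among those below 0. In control livers both genes overlapped by score, and the other enzymes overlapped by score in both diets. How many of all tested genes split by score in this way was not counted.

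Several of the enzymes that fell varied together from liver to liver, and the diets' values were not tested against each other. All levels of a library share its depth, scaling factor and cell content, whose part in r was not tested. The 21 pairs of tested enzymes were correlated in each diet over 12 libraries, 42 relations in all, with permutation p (100000 resamples, two-sided) adjusted over the 42. In control livers Mthfd1 and Aldh1l1 had the highest r, 0.887 (adjusted permutation p = 0.0021; rho 0.930, adjusted p = 0.00126), and r was 0.853 without the pair of libraries farthest from the median of Mthfd1. Shmt2 and Aldh1l1 had r = 0.871 in control (adjusted permutation p = 0.00686; rho 0.811, adjusted p = 0.0264; r = 0.776 without the pair) and 0.795 in MCD (adjusted permutation p = 0.0172; rho 0.748, adjusted p = 0.0399; r = 0.642 without the pair). Shmt2 and Mthfd1 had r = 0.799 in control (adjusted permutation p = 0.00609; rho 0.902, adjusted p = 0.0042; r = 0.880 without the pair) and 0.716 in MCD (adjusted permutation p = 0.047; rho 0.699, adjusted p = 0.0569; r = 0.669 without the pair). Shmt1 and Mthfd1 had r = 0.776 in control (adjusted permutation p = 0.0197; rho 0.748, adjusted p = 0.0399; r = 0.693 without the pair), and with the score removed these 4 control relations had r between 0.785 and 0.908. For the pairs that passed in control alone, MCD livers had r = 0.587 for Mthfd1 and Aldh1l1 (adjusted permutation p = 0.117) and r = 0.452 for Shmt1 and Mthfd1 (adjusted permutation p = 0.285; r = -0.054 without the pair), and 0.727 and 0.753 with the score removed. With the score removed in MCD, Shmt2 had r = 0.850 with Aldh1l1 and 0.730 with Mthfd1.

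Shmt1 had negative r with the enzymes that rose, not all past the threshold. In control the other enzymes that fell also had negative r with Mthfd2 and Mthfd1l, none past 0.05 after adjustment. By rank, Shmt2 and Mthfd1l passed in control (rho -0.832, adjusted permutation p = 0.0185, with r = -0.598), while in MCD their r was -0.082. In control the r of Shmt1 with Mthfd2 was -0.833 (adjusted permutation p = 0.0119), but rho was -0.573 (adjusted p = 0.145) and r was -0.623 without the pair of libraries farthest from the Shmt1 median. In MCD livers Shmt1 had r = -0.755 with Mthfd2 (adjusted permutation p = 0.022; rho -0.706, adjusted p = 0.0526; r = -0.683 without the pair) and r = -0.734 with Mthfd1l (adjusted permutation p = 0.0375; rho -0.741, adjusted p = 0.0399; r = -0.735 without the pair). With the sex-linked score removed, these MCD values were -0.387 and -0.288, and neither these values nor the change was tested. The control values with the score removed were -0.824 with Mthfd2 and -0.794 with Mthfd1l, whose r before was -0.627 (adjusted permutation p = 0.102). Mthfd1l and Mthfd2 had r of 0.612 in control and 0.661 in MCD, neither past 0.05 after adjustment (adjusted permutation p = 0.104 and 0.0837), and with the score removed 0.855 and 0.112. In MCD it was 0.895 without the pair of libraries farthest from the Mthfd1l median.

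**Figure D4:**
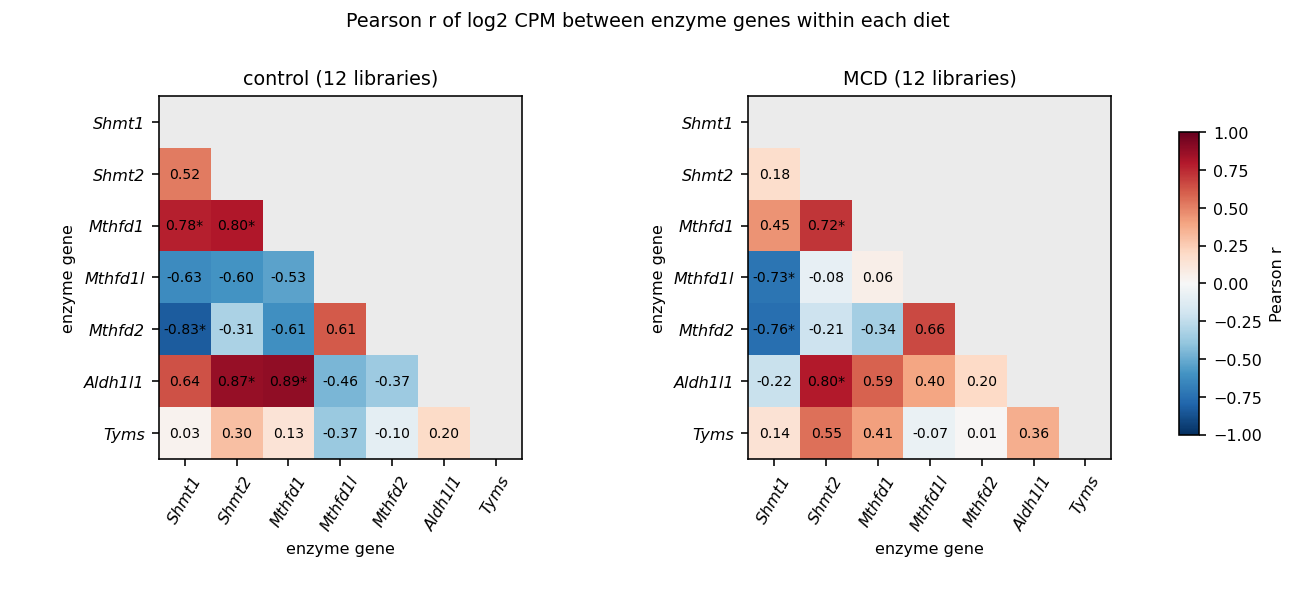
Pearson r of log2 CPM between the 7 tested enzymes over the 12 control libraries (left) and the 12 MCD libraries (right), on a color scale from -1 to 1. Asterisks mark an adjusted permutation p at or under 0.05, which holds for 5 control and 4 MCD pairs, and the positive ones join Shmt1, Shmt2, Mthfd1 and Aldh1l1.

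As a description, the genes whose log2 CPM, centered within diet, went most nearly with each enzyme over the 24 libraries were ranked by Pearson r among about 10111 genes with a mean of at least 5 CPM. Cyp27a1, a sterol hydroxylase of bile acid synthesis, came first for Shmt2 (r = 0.933) and for Aldh1l1 (0.894). Hpn (0.926) and Txndc15 (0.921) followed for Shmt2, and Serpinf1 (0.857) and Shmt2 itself (0.855) for Aldh1l1. For Mthfd1 they were Serpina1d (0.866), Ivd (0.834) and Ftcd (0.826), and for Shmt1 Cwf19l1 (0.870), Gstt3 (0.834) and Ces1c (0.786). Mthfd1l went with Plaur, the urokinase receptor (0.865), Col5a1, a fibrillar collagen chain (0.832), and Pck2, the mitochondrial phosphoenolpyruvate carboxykinase (0.825). The nearest to Mthfd2 were Scamp5 (0.808), Emp1 (0.792) and Kctd17 (0.786), and to Tyms Mettl5 (0.827), Ascc1 (0.815) and Med6 (0.814). All of these share the libraries, their depth and their scaling factors.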

How the data were processed

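Gene counts were measured by RNA sequencing of poly(A) liver RNA from 24 mice. The authors deposited raw counts per Ensembl gene, not normalized, with 1 column per library; per the submitters' processing notes the build was mm10 and the tools were bcl2fastq and STAR 2.7.3a, while the counting program and its use of strand are not given for the mouse libraries. The study's methods list a stranded TruSeq kit, with no species named, and, for human reads, the exon quantification pipeline with the same STAR version, and PISCES. All 24 columns matched a sample title and 0 were left unused. Symbols, exon lengths and overlaps came from GENCODE mouse release M21 (51745 of 56205 rows named; rows without a symbol held 0.0808% of counts), and promoters from RefSeq.

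In R 4.3.3, genes were kept with filterByExpr by diet, scaled with TMM and tested with edgeR 4.0.16 (glmQLFit, glmQLFTest, diet only, all 24 libraries). Calls needed an FDR of 0.01 or less, adjusted by Benjamini-Hochberg over all 14109 genes, and a log2 fold change beyond 0.5. The biological coefficient of variation was 26.8%. Log2 CPM used a prior count of 2. Where a gene symbol had 2 or more rows, the row with the most counts was used. Ratios and correlations were tested by two-sided permutation (100000 resamples, numpy 2.4.6, Python 3.11.15), and figures drawn with matplotlib 3.10.9. Counts were also simulated for this comparison over 14109 genes, of which 200 were changed. There edgeR called 92 of 100 genes changed by 1 on the log2 scale and 98 of 100 changed by 2. Of 13909 unchanged genes it called 0. In the liver libraries 2712 genes were called higher and 2688 lower. Scaling with that many changed genes was not tested on these counts.

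All 8 enzymes are named. From each list of pathway, companion and marker genes the text gives the count called in each direction and up to 4 called genes with the largest change (other genes only with their values), and for each tested enzyme the 3 most similar genes. Values of some listed genes are not reported here. The members and lists were chosen with earlier results of these data known. Alternatives were RLE, upper-quartile and total-count scaling, 2 other low-count filters, DESeq2 1.42.0, limma-voom (limma 3.58.1), a replicate block, the sex-linked score, other call limits, another pseudocount and leaving out each library. Leaving out control replicates 4 and 12, and levels relative to hepatocyte markers, were added after seeing the data.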

Additional observations from a re-analysis of the deposited data

How the results depend on the processing

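Shmt1, Aldh1l1, Mthfd2 and Mthfd1l kept their direction and call in each alternative in which they were tested. Total counts alone, which raised the median change of all genes by 0.37 (log2), gave Shmt2 -0.36 and Mthfd1 -0.41, 2 enzymes called lower, and 4 other pathway genes called higher and 4 lower. A log2 limit of 1 left out Shmt2 (-0.74) and Mthfd1 (-0.78), so that 2 enzymes were called lower, and 0 other pathway genes were called higher and 3 lower. Relative to hepatocyte markers, Shmt2 was at -0.25, Mthfd1 at -0.30 and Tyms at 0.53. With at least 10 counts in every sample 1 enzyme was called higher, since Mthfd2 was no longer tested. Without a low-count filter 4 other pathway genes were called higher, and with upper-quartile factors, which raised the median of all genes by 0.15, 10 were called lower. Among all called genes 50.2% were higher, against 84.3% with total counts and 65.6% with upper-quartile factors. Leaving out 1 library at a time moved Tyms between -0.0043 and 0.11, changing its sign without control replicate 2, and the count of other pathway genes called lower between 12 and 19; the cause of these moves was not tested. Same-numbered libraries deviated together in 8 of 12 pairs (r above 0.1, range -0.28 to 0.35). No baseline from libraries of different numbers was taken, so this does not settle whether the numbers pair the samples. With a replicate block the same counts of enzymes were called (2 higher, 4 lower), 16 other pathway genes were lower, and Mthfd1l was at 1.40. Depth limits Aldh1l2 most, at 18 counts or fewer per library.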
